A study of Mus musculus with 16 samples.

Results

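The response of wild-type (WT) mouse liver to lipopolysaccharide (LPS), the endotoxin of Gram-negative bacteria, was measured over all named genes as the difference between 4 liver samples labelled LPS and 4 labelled untreated. These 8 arrays, chosen by their sample titles, are among 16 in the series, which also held 8 arrays of liver from S534A mice, a knock-in of an alanine codon into the p65 (Rela) subunit of NF-kB. All samples came from C57Bl6/J males kept on a 12-hour light-dark cycle with chow and water at will. One WT group carried the label untreated and the other the label 1 mg/kg LPS, and neither carried an allele or agent beyond these. The S534A groups, homozygous for the allele after backcrosses to the same strain, carried the same pair of treatments by their sample titles, which were followed although the series text also writes the dose beside untreated S534A. No group was labelled as given vehicle, and none of the sources used here gives the interval between LPS and tissue collection, so handling, feeding and collection time cannot be told apart from LPS. Whether the 4 samples of each group were from different animals is not stated, and p-values therefore measure only how these samples spread, part of which may be technical. Values are log2 signals from Affymetrix whole-transcript arrays, and a change is the LPS mean minus the untreated mean (log2) given with its standard error from limma, n = 4 arrays a group.

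LPS binds TLR4 on Kupffer cells, endothelium and hepatocytes. Signalling through NF-kB and through interferon receptors then switches on inflammatory and antiviral genes. Cytokines released in the liver act on hepatocytes, which make acute-phase proteins and lower many of their metabolic functions. Interferon targets, acute-phase proteins, cytokines, chemokines and their receptors, and the known signalling parts of these pathways are called here the usual inflammatory families, as set by a fixed list of symbol patterns. The patterns read symbols alone, so interferon-induced genes whose symbols they do not match, such as Plscr1 and Wars, are counted outside the families. The genes outside those families are the main subject below.

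Of the 15908 genes tested, 7139 passed an adjusted p under 0.05 by limma (44.9%). Those higher after LPS numbered 2377 (14.9%), and those lower 4762 (29.9%). With a change of at least 2-fold as well, 712 genes were higher (4.48%) and 585 lower (3.68%). In 6093 genes (38.3%) the 4 LPS values and the 4 untreated values did not overlap. The balance of higher and lower genes depended on how arrays were scaled. The higher genes made up 33.3% of called genes on the deposited values, 22.1% with each array centred on the median of all probe sets and 51.9% with each array centred on the median of the tested genes. For changes of at least 2-fold these shares were 54.9%, 44.5% and 67.5%. The median change of all genes was −0.05, −0.16 and 0.08 on these 3 scales, so small changes are read against that median.

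Of the variance over 16 arrays 78.5% lay on the first principal component, which placed the untreated WT arrays between −44.0 and −40 and the LPS-treated WT arrays between 34.5 and 42.0. On the second (7.8%), LPS-treated WT array 2 (−22.2) and untreated WT array 4 (−20.7) stood at the low end. Untreated WT arrays 1 (21.9) and 3 (20.2) stood about as far out at the high end. The pair at the low end is called here the arrays at the edge of the second component. Untreated arrays 1 and 3 had a low clock score (−1.70 and −1.77) and untreated arrays 2 and 4 a high one (3.43 and 3.47). That score sums up clock genes, as the mean log2 signal of Per1, Per2, Per3, Dbp and Tef less that of Arntl. The LPS-treated WT arrays 1 to 4 scored 0.67, 1.53, −0.01 and 0.94, between these pairs. The 3 arrays with the lowest scores, untreated S534A array 3 among them and WT arrays 1 and 3, are called here the arrays with a shifted clock. That name is a label only, and which of the untreated pairs is the shifted one was not tested. All 9 hepatocyte markers measured were present, with a mean between 13.54 and 13.64 on every WT array. The mean of 12 neutrophil markers lay between 5.72 and 5.76 in untreated and between 7.16 and 7.85 in LPS-treated arrays, and all 12 rose. The mean of 12 Kupffer cell markers lay between 9.09 and 9.53 without LPS and between 8.0 and 8.34 after it (9 fell and 1 rose), and that of 11 sinusoidal endothelial markers between 9.53 and 9.68 and between 8.20 and 8.65 (9 fell, 2 rose). For 12 stellate cell markers the ranges were 8.76 to 8.81 and 8.03 to 8.20 (9 fell). Of 7 monocyte markers listed 3 were measured (2 rose, 1 fell), and their mean lay between 7.77 and 7.93 without LPS and between 8.74 and 9.12 after it. Smaller shifts were seen in 5 B cell markers (−0.38, 3 fell) and 4 erythroid and platelet markers (0.16, 1 rose and 1 fell). The median change of those 4 was 0.1 on the deposited values and −0.0 with arrays centred on the median of all probe sets. Each of these list means other than that of hepatocyte markers separated the groups (exact permutation test over arrays, two-sided p = 0.0286, the smallest that 70 arrangements allow). The means of 6 T and NK cell markers (0.08) and 4 cholangiocyte markers (0.12) did not (same permutation test, p = 0.1714 and 0.2571). In whole liver, fewer cells of a type and less RNA per cell cannot be told apart.

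The usual inflammatory families held 650 of the tested genes, of which 323 rose and 72 fell. They were the majority only among the largest rises. Few as they were among the 15908 genes tested, they held 210 of the 712 genes that rose at least 2-fold. They held 120 of the 254 that rose at least 4-fold. Of the 95 genes that rose at least 8-fold, 67 belonged to these families and 28 (29.5%) did not. Of the 254 that rose at least 4-fold, 134 (52.8%) lay outside, and of the 712 that rose at least 2-fold, 502 (70.5%) did. Of the 585 genes that fell at least 2-fold, 567 (96.9%) lay outside. Among all 15908 genes tested, 15258 lay outside. The share of falls outside was thus close to that of all genes, and the shares of rises outside were below it. The largest falls were fewer than the largest rises, with 56 genes down at least 4-fold and 9 down at least 8-fold. Only 1 gene, Cyp7a1, fell at least 32-fold, against 15 that rose that far.

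**Figure D1:**
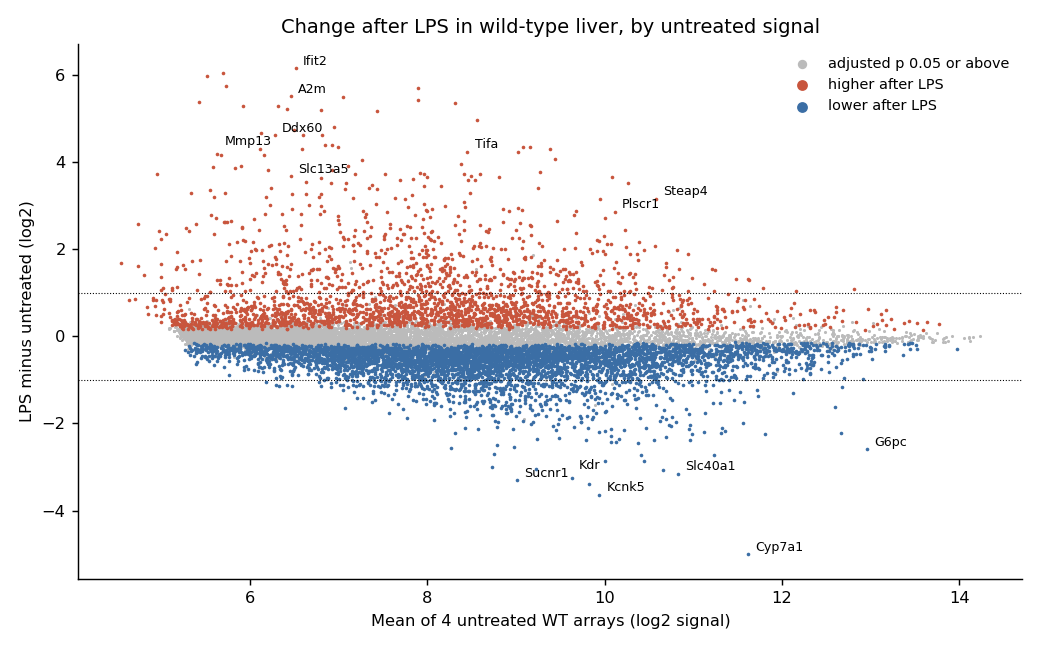
Change after LPS (log2, vertical axis) of each of 15908 genes against its mean signal in 4 untreated WT arrays (log2, horizontal axis). Red points were called higher and blue points lower (limma adjusted p under 0.05), grey points were not called, dotted lines mark a 2-fold change, and Cyp7a1 at −5.01 is the lowest point.

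Rises and falls were also counted by untreated brightness, a comparison in which the untreated mean enters both axes. In the dimmest of 5 equal groups of genes by untreated signal, 294 of 3182 rose and 161 fell. In the brightest, 482 of 3182 rose and 1553 fell. With arrays centred on the median of all probe sets 192 rose and 512 fell in the dimmest group and 359 and 1974 in the brightest, and with arrays centred on the median of the tested genes 597 rose and 52 fell in the dimmest and 666 and 1077 in the brightest. The balance in the dimmest group therefore turned with the scaling, while in the brightest more genes fell than rose under each. Rises of at least 4-fold numbered 36, 55, 86, 56 and 21 from the dimmest group to the brightest, and falls of at least 4-fold 0, 0, 0, 17 and 39. The falls of at least 4-fold numbered 0, 0, 1, 21 and 46 with the first of these centrings and 0, 0, 0, 10 and 30 with the other. The dimmest group lay between 4.55 and 5.98 and the next between 5.98 and 6.95, while the lowest value on any array was 3.49. A 4-fold fall had little room in these groups, so its absence there says little about dim genes. Of the 100 genes brightest in untreated liver, 13 rose and 17 fell, and none of them changed at least 2-fold.

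Among genes that the symbol patterns left outside the usual families, only Gm12250 rose at least 32-fold, with a change of 5.49 ± 0.08. It has a predicted-gene symbol and was singled out after its values were seen. Such a symbol does not tell the patterns what a gene does, so its place outside is by name alone. The next largest rise outside the usual families was that of Ddx60, a DExD/H-box helicase that acts in antiviral RNA sensing. Its signal was 6.13, 6.29, 6.37 and 6.33 in the 4 untreated arrays and 11.18, 10.83, 10.69 and 10.88 in the 4 LPS-treated arrays, a change of 4.61 ± 0.12, 24.5-fold (limma adjusted p = 1.55e-14). Tifa, an adaptor that oligomerises to activate TRAF proteins, stood at 8.39, 8.53, 8.15 and 8.74 without LPS and 12.81, 12.55, 12.65 and 12.74 after it. The change of Tifa was 4.24 ± 0.11, 18.8-fold, and the gap between its groups was far wider than the spread within either. Mmp13, a secreted collagenase, went from 5.82, 5.59, 5.68 and 5.43 to 9.92, 9.87, 9.66 and 9.77, a rise of 4.17 ± 0.13. Calhm6, of a family of calcium-gated channels, rose by 4.17 ± 0.13. In both genes every treated value lay above every untreated value.

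Several of the next largest rises were genes of transport and metabolite sensing. Slc10a6, a carrier of sulphated steroids, stood at 5.36, 5.86, 5.57 and 5.91 in untreated arrays and 10.05, 9.65, 9.90 and 9.72 after LPS (4.15 ± 0.12, 17.8-fold). Hcar2, the receptor for nicotinic acid and for the ketone body beta-hydroxybutyrate, stood at 5.65, 5.61, 5.52 and 5.53 and 9.61, 9.50, 9.31 and 9.41 (3.88 ± 0.12, 14.7-fold, limma adjusted p = 9.85e-14). In both genes the groups lay several log2 units apart. Slc13a5, the sodium-coupled citrate importer of hepatocytes, had 6.82, 6.16, 6.75 and 6.12 without LPS and 10.08, 9.97, 10.02 and 10.46 with it (3.67 ± 0.22). Upp1, which splits uridine into uracil and ribose phosphate, had 6.70, 7.17, 6.48 and 6.84 and 10.06, 10.16, 9.83 and 10.24 (3.27 ± 0.15). Neither gene had an untreated value near the lowest LPS value.

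Among regulators, Tiparp, a mono-ADP-ribosyltransferase known as a target and repressor of the aryl hydrocarbon receptor, rose by 3.58 ± 0.12. Tead1, the DNA-binding partner of YAP, rose from 7.96, 8.01, 7.93 and 7.96 to 11.48, 11.37, 11.28 and 11.52, a change of 3.44 ± 0.10, 10.9-fold. Its 4 untreated values lay close together, and every treated value was above 11. Zc3h13, part of the complex that methylates adenosines in messenger RNA, rose by 3.39 ± 0.14, the centrosomal coiled-coil gene Tacc2 by 3.48 ± 0.13 and the stress gene Gadd45b by 3.20 ± 0.31. Tor3a, an ATPase of the torsin family, rose by 3.66 ± 0.12, Syt12, a synaptotagmin, by 3.82 ± 0.17, Cpne8, a copine, by 3.27 ± 0.09 and Crybg1 by 3.04 ± 0.09. Timp1, the inhibitor of matrix metalloproteinases, rose by 3.29 ± 0.22. The 4 and 4 values of each of these genes were separate.

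**Figure D2:**
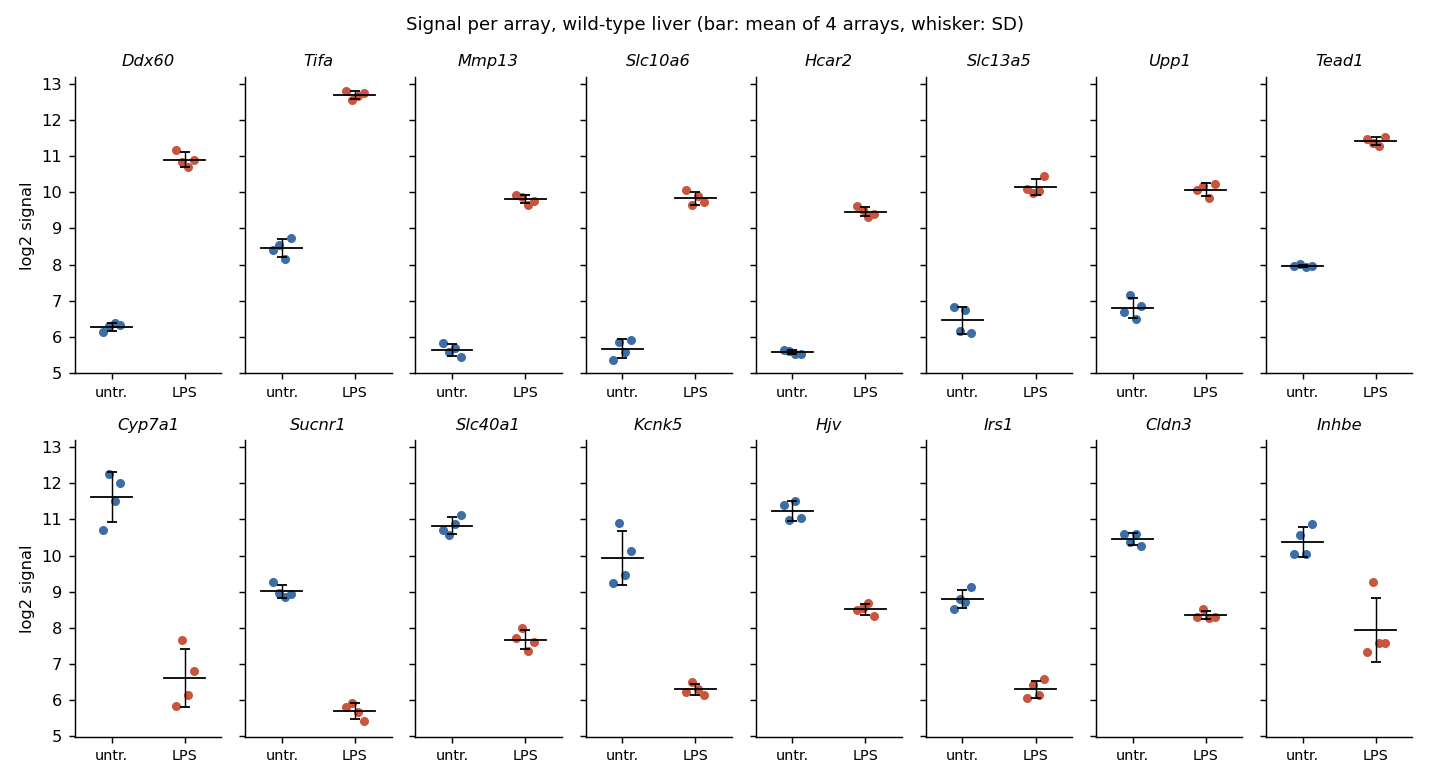
Log2 signal of 16 genes in each of the 4 untreated (blue) and 4 LPS-treated (red) WT arrays, with the mean as a bar and the SD as a whisker. The 8 genes of the upper row were higher on every treated array than on any untreated one, and the 8 of the lower row lower, with LPS-treated array 2 of Inhbe at 9.26 against 7.34 to 7.57 on the other treated arrays.

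Short promoter windows are shown for 5 of the genes with large rises, to set the sequence beside the values given above. These genes were picked because each holds a match, before the gene start, to a motif named below. They do not stand for the other genes with large rises. All sequences are from RefSeq promoters of GRCm38.p6, on the strand of the gene and 5′ to 3′, with the motif match in capitals.
Ddx60, chr8:61928014-61928062, plus strand: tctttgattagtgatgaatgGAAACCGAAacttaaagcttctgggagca
Ddx60, chr8:61928048-61928086, plus strand: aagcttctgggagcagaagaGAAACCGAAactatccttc
Calhm6, chr10:34128008-34128056, minus strand: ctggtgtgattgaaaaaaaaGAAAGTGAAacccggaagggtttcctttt
Crybg1, chr10:44004874-44004922, minus strand: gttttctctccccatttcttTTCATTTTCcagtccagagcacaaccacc
Slc10a6, chr5:103629433-103629481, minus strand: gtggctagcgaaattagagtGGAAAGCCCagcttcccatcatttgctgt
Ccrl2, chr9:111057558-111057606, minus strand: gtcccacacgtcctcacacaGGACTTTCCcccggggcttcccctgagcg
The first 4 windows hold a match to GAAANNGAA, the core of the interferon-stimulated response element, read forward in Ddx60 and Calhm6 and as its reverse complement in Crybg1. The 2 matches of Ddx60 begin 53 and 19 bases before the gene start. The windows of Slc10a6 and of Ccrl2, an atypical chemokine receptor that rose by 5.21 ± 0.13, hold a match to the NF-kB type motif GGNNTTTCC, as its reverse complement in Slc10a6. A match is a stretch of letters and not a measured binding site.

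A promoter was available for 12524 of the tested genes, as the 250 bases before and 50 bases after the start, and each motif was searched on both strands. The interferon-type motif occurred in 7.2% of all these promoters. It occurred in 26.6% of the 199 promoters of genes that rose at least 4-fold, and in 16.2% of the 105 such promoters outside the usual families. Among genes that fell at least 2-fold it occurred in 4.7% of 465. The NF-kB type motif occurred in 5.9% of all promoters, in 15.1% of those with a rise of at least 4-fold and in 6.7% of those outside the usual families. A TATA box (TATAAA) stood in 8.9% of all promoters, in 19.6% of those with a 4-fold rise and in 6.0% of those with a 2-fold fall. For the C/EBP type (TTGCNNAA) the shares were 8.7%, 15.6% and 7.3%, and for the STAT type (TTCNNNGAA) 7.1%, 12.6% and 4.1%. The E-box (CACGTG) went the other way, at 9.4%, 7.0% and 10.8%. In the 105 promoters with a 4-fold rise outside the usual families these shares were nearer to those of all promoters. They were 11.4% for the TATA box, 9.5% for the C/EBP type and 8.6% for the STAT type. For the E-box the share there was 10.5%, above that of all promoters. In 16 promoters an interferon-type match overlapped a STAT-type match. These shares are descriptions of letters in fixed windows, with no test.

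**Figure D3:**
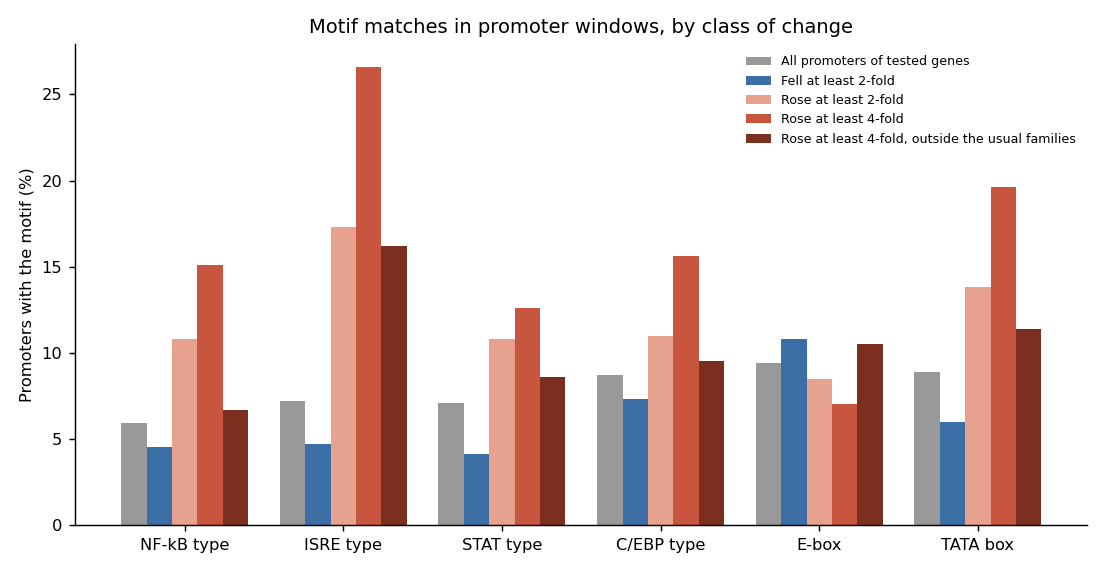
Share of promoters (%, vertical axis) with at least 1 match to each of 6 motifs, for all tested genes, genes that fell at least 2-fold, genes that rose at least 2-fold or 4-fold, and the latter outside the usual families. ISRE stands for interferon-stimulated response element, whose bar reaches 26.6% for genes that rose at least 4-fold against 7.2% of all promoters.

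The largest fall on the arrays was that of Cyp7a1, which starts bile acid synthesis. Its signal was 10.71, 12.26, 11.50 and 12.0 in untreated arrays and 5.84, 7.67, 6.13 and 6.81 after LPS (−5.01 ± 0.40, 32.2-fold, limma adjusted p = 3.03e-08). The values spread widely within both groups and did not overlap. Kcnk5, a background potassium channel, had 9.25, 10.90, 9.46 and 10.13 without LPS and 6.24, 6.51, 6.32 and 6.15 with it (−3.63 ± 0.34). Its untreated values spread over more than a log2 unit, while its treated values were close together.

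Slc40a1, the iron exporter ferroportin, went from 10.71, 10.58, 10.87 and 11.13 to 7.72, 7.99, 7.37 and 7.61, a change of −3.16 ± 0.19. Hjv, the hemojuvelin coreceptor that sets hepcidin, went from 11.40, 10.98, 11.52 and 11.03 to 8.49, 8.54, 8.69 and 8.32 (−2.72 ± 0.16). Slc40a1 also stands among the Kupffer cell markers, 9 of which fell, and the part of those cells in its change was not tested. Sucnr1, the receptor for succinate, went from 9.28, 8.97, 8.85 and 8.94 to 5.80, 5.93, 5.68 and 5.42 (−3.31 ± 0.15), and its groups lay about as far apart as those of Slc40a1. Irs1, the adaptor below the insulin receptor, went from 8.53, 8.79, 8.71 and 9.13 to 6.07, 6.41, 6.15 and 6.59 (−2.48 ± 0.13).

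Among the other large falls outside the usual families, Fam20c, the kinase that phosphorylates secreted proteins, fell by 2.87 ± 0.16 and the membrane-anchored serine protease gene Prss8 by 2.71 ± 0.17. Hykk, a kinase of hydroxylysine breakdown, fell by 2.71 ± 0.16, and G6pc, which releases glucose from hepatocytes, by 2.59 ± 0.26. Hsd3b2 and Hsd3b5, of a steroid dehydrogenase family, fell by 2.44 ± 0.14 and 2.21 ± 0.24. These 2 genes are near-identical copies of others in their cluster, and their probes may be shared between copies. Nr1i3, the xenobiotic receptor CAR, fell by 2.37 ± 0.25, Arrdc3, an arrestin-domain gene, by 3.07 ± 0.29, while Fam13a changed by −3.01 ± 0.14 and Nrep by −2.87 ± 0.29. Rasgrp3, an activator of RAS, fell by 2.56 ± 0.12 and the adaptor Bcar3 by 2.36 ± 0.14.

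Lists of genes by role were then set against the shares of all genes called, 14.9% higher and 29.9% lower. Those shares varied with untreated signal. In the dimmest of the 5 groups by signal 9.2% rose and 5.1% fell, and in the brightest 15.1% and 48.8%. In the next brightest 44.9% fell. The lists, and the symbol families further below, were not matched for signal. A share lower of about that size is thus also that of bright genes as a whole. Which of a list's counts was the larger, higher or lower, turned with at least 1 of the centrings in the lists for amino acid transporters, metabolite receptors, matrix proteases, ribosome biogenesis, transfer RNA synthetases, translation, heat shock, oxidase genes, kinases, glycosyltransferases, both lists of transcription factors and histone modifiers, or the counts became equal. They became equal with centring on the tested genes for the citrate cycle, polyamine, prostaglandin and hepatokine lists, and with centring on all probe sets for long noncoding and small RNA host genes.

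Genes of the citrate cycle and its branches moved both ways. Of 26 measured members of the list for the cycle, citrate and itaconate, 5 rose and 11 fell. The largest rises were Acod1 (4.29 ± 0.19), which makes itaconate from cis-aconitate, and the citrate importer Slc13a5, and the largest fall was Sucnr1. Acod1 went from 6.24, 6.38, 6.15 and 5.65 to 10.49, 10.44, 9.95 and 10.72, with no overlap. The median of the list was −0.13 against −0.05 for all genes. With arrays centred on the median of the tested genes 5 rose and 5 fell.

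Among 49 nucleotide genes 9 rose and 20 fell, and 6 rose at least 2-fold. Cmpk2, a mitochondrial nucleotide kinase induced with antiviral genes, rose from 7.76, 7.08, 7.69 and 7.20 to 12.77, 12.60, 12.38 and 12.66 (5.17 ± 0.15, 36-fold). Samhd1, which degrades deoxynucleotides, rose by 3.41 ± 0.09, so that with Upp1 the 3 largest rises of the list were a kinase, a hydrolase and a phosphorylase of salvage or breakdown. Pnp and Xdh, which carry purines to uric acid, rose by 2.05 ± 0.17 and 1.98 ± 0.12, and Nt5c3, a pyrimidine nucleotidase, by 2.58 ± 0.16. Those 3 genes were chosen after their values were seen.

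Of 35 amino acid transporters 10 rose and 11 fell. Slc7a6, a cationic and neutral exchanger, rose by 2.00 ± 0.12 and Slc6a6, the taurine carrier, by 1.41 ± 0.09. Slc36a1, which exports amino acids from lysosomes, fell by 1.44 ± 0.10. In the list of 21 polyamine, arginine and nitric oxide genes 4 rose and 9 fell. Nos2, the inducible nitric oxide synthase, rose by 3.28 ± 0.16, and Arg2, the mitochondrial arginase, by 0.87 ± 0.09. Sat1, which acetylates polyamines for breakdown, rose by 0.89 ± 0.12, while Srm, which makes spermidine, fell by 0.92 ± 0.17. LPS-treated array 2 of Srm stood at 10.88 against 9.94 to 10.0 on the other 3 treated arrays.

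The serine, glycine and folate cycle list had 13 of 26 members lower and 1 higher. The single riser was Mthfd2, the mitochondrial folate dehydrogenase, at 1.46 ± 0.21. Shmt2, the mitochondrial serine hydroxymethyltransferase, fell by 0.67 ± 0.07, Amt of the glycine cleavage system by 0.83 ± 0.09 and the folate carrier Slc46a1 by 0.74 ± 0.07. Mthfd2 stood at 7.03, 6.14, 7.0 and 6.50 without LPS and 8.02, 8.57, 8.01 and 7.93 after it, and array 2 was the highest of the treated arrays. Of 22 genes of branched-chain amino acid breakdown 11 fell and 1 rose. Bcat2, the mitochondrial transaminase, fell by 1.56 ± 0.11 and Bckdk, the kinase that restrains the next step, by 0.95 ± 0.11, while the phosphatase Ppm1k, which opposes that kinase, rose by 0.70 ± 0.14. The count of risers was 2 without either array 4 of the untreated or array 3 of the LPS-treated WT samples.

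Haem, vitamin A and hormone lists leaned lower on the deposited values and under both centrings. In the haem list 10 of 18 fell, with the synthesis enzyme Cpox at −1.08 ± 0.12 and the haem transporter Slc48a1 at −0.67 ± 0.09, and 3 rose. Hmox1, which breaks haem down, was one of those 3, at 1.43 ± 0.25. In the vitamin A list 15 of 32 fell and 2 rose (1 without either untreated array 4 or treated array 1 of WT). The retinoic acid receptors Rara and Rarg fell by 1.55 ± 0.14 and 0.70 ± 0.08, and Lrat, which stores retinol as esters in stellate cells, by 1.55 ± 0.17. Rxrg rose by 1.41 ± 0.27. Lrat is also 1 of the 9 stellate cell markers that fell.

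Thyroid and steroid hormone handling had 16 of 26 genes lower and 3 higher, with a median of −0.42. The falls were led by Hsd3b2 and Hsd3b5, and the largest rise was that of Fkbp5, a glucocorticoid-induced cochaperone of the glucocorticoid receptor (2.14 ± 0.27). Fkbp5 stood at 7.83, 8.84, 8.63 and 9.08 in untreated and 10.64, 10.92, 10.59 and 10.78 in treated arrays. Receptors for liver hormones and vasoactive peptides had 16 of 31 lower and 3 higher. Among them Vipr1, a receptor for vasoactive intestinal peptide, fell by 1.78 ± 0.10, the angiotensin receptor Agtr1a by 1.28 ± 0.12, and the natriuretic peptide receptor Npr1 fell by 1.10 ± 0.11.

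**Figure D4:**
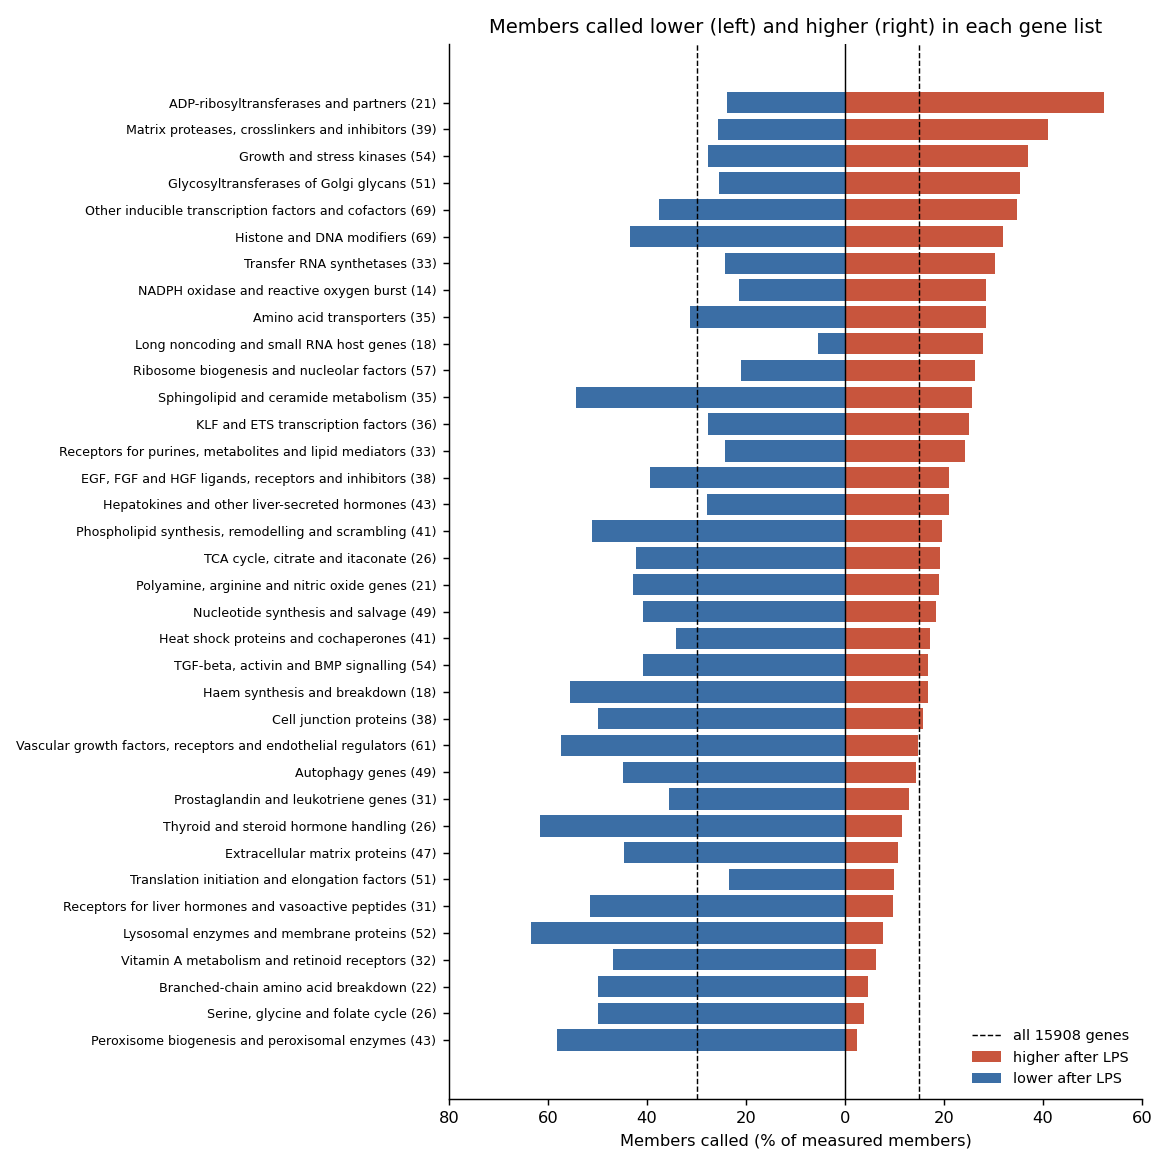
Share of the measured members of each of 36 gene lists called higher (red, to the right) or lower (blue, to the left) after LPS in WT liver, in percent, with the number measured in brackets. Dashed lines give the shares of all 15908 genes, 14.9% higher and 29.9% lower, and on the deposited values peroxisomal genes had the smallest share of risers, 2.3%.

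Membrane lipid genes moved both ways. Of 35 sphingolipid genes 9 rose and 19 fell. Cers6, a ceramide synthase, rose by 2.59 ± 0.28, Sgms1, which makes sphingomyelin, by 1.87 ± 0.18 and Sptlc2, a subunit of the first enzyme of the pathway, by 1.25 ± 0.11. Gba2, which cleaves glucosylceramide, fell by 1.48 ± 0.20 and Spns2, the exporter of sphingosine phosphate, by 1.23 ± 0.09. Of 41 phospholipid genes 8 rose and 21 fell. The scramblase Plscr1, an interferon target, went from 10.16, 9.92, 10.22 and 10.14 to 13.03, 12.91, 12.92 and 13.01 (2.86 ± 0.09), while its relative Plscr4 fell by 0.77 ± 0.09. Ptdss2, a phosphatidylserine synthase, fell by 1.24 ± 0.08 and Pld4, of the phospholipase D family, by 1.72 ± 0.15, while the acyltransferase Lpgat1 rose by 1.36 ± 0.07.

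Peroxisomal genes fell in 25 of 43 cases and rose in 1 (58.1% and 2.3%). The riser was Pex26, a membrane anchor of the import machinery (0.89 ± 0.18), and the import genes Pex14 and Pex16 fell by 0.71 ± 0.08 and 0.65 ± 0.07. Acot4, a thioesterase, stood at 8.30, 9.38, 8.93 and 10.13 without LPS and 7.28, 8.16, 7.29 and 7.27 after it (−1.68 ± 0.33). Amacr, which handles branched fatty acids and bile acid precursors, fell by 0.87 ± 0.09. The count of risers was 2 without untreated WT array 4. Prostaglandin and leukotriene genes had 11 of 31 lower and 4 higher, none by 2-fold, with Lta4h, which makes leukotriene, at −0.61 ± 0.10, and the cyclooxygenase gene Ptgs2 at 0.56 ± 0.11. Without the 3 arrays with a shifted clock 7 of that list were lower.

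The list for receptors of purines, metabolites and lipid mediators had 8 of 33 higher and 8 lower. Beside Hcar2, Gpr84, a receptor for medium-chain fatty acids on myeloid cells, rose by 1.85 ± 0.14. Gpr182, a receptor of sinusoidal endothelium, fell by 2.18 ± 0.17, from 10.12, 9.94, 9.90 and 10.06 to 7.72, 8.45, 7.50 and 7.64. In this sinusoidal gene, which is also 1 of the 9 endothelial markers that fell, the groups were separate. The part of endothelial cells in its change was not tested.

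Liver-secreted hormones moved both ways. Of 43 hepatokines and other secreted hormones 9 rose and 12 fell, and 7 and 5 of these changed at least 2-fold. Igfbp1, which binds insulin-like growth factors, went from 9.53, 10.52, 9.60 and 9.06 to 12.75, 11.90, 12.90 and 12.63 (2.87 ± 0.27). Subunits of the activin family went opposite ways. Inhbb rose by 1.93 ± 0.14, and Inhbe stood at 10.04, 10.58, 10.03 and 10.86 in untreated arrays and 7.34, 9.26, 7.57 and 7.57 after LPS (−2.44 ± 0.45). The vasoactive peptide genes Edn1 and Adm rose by 1.73 ± 0.10 and 1.48 ± 0.10. Nampt, an enzyme of NAD synthesis that is also secreted, rose by 2.12 ± 0.24, and Gdf2, which encodes the endothelial ligand BMP9, fell by 1.84 ± 0.16. These last 2 genes were chosen after their values were seen.

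Of 54 genes of TGF-beta, activin and BMP signalling 9 rose and 22 fell. The activin receptor Acvr1b rose by 1.81 ± 0.14 and Smad1, which carries BMP signals, by 1.14 ± 0.08, while Smad9 fell by 1.82 ± 0.26 and the endothelial coreceptor Eng by 1.26 ± 0.09. Of 38 genes of the EGF, FGF and HGF systems 8 rose and 15 fell. The ErbB ligands Btc and Nrg4 rose by 2.24 ± 0.12 and 2.34 ± 0.64, and the adaptor Gab2 by 1.57 ± 0.09. Grb7, an adaptor of ErbB receptors, fell by 1.97 ± 0.26 and Klb, the coreceptor for FGF21, by 1.53 ± 0.15. Hgf, the growth factor made by stellate cells, fell by 1.44 ± 0.13. Hgf, too, is among the stellate cell markers. Without the 3 arrays with a shifted clock the change of Nrg4 was 1.01.

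Vascular genes fell in 35 of 61 cases and rose in 9, and 15 fell at least 2-fold against 2 that rose that far. Kdr, the main VEGF receptor, stood at 9.53, 9.47, 9.78 and 9.74 without LPS and 6.09, 6.56, 6.43 and 6.47 after it (−3.24 ± 0.12). Ptprb, the endothelial phosphatase that restrains TIE2, fell by 2.37 ± 0.13, and Adgrl4, an adhesion receptor of endothelium, by 2.16 ± 0.12. Procr, the endothelial receptor for protein C, rose by 1.21 ± 0.13. Kdr, Ptprb and Adgrl4 had no value shared between the groups. Along with these, the mean of the 11 sinusoidal endothelial markers changed by −1.31 after LPS, a list that holds Kdr, and its part in the fall of the list was not tested.

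Matrix proteins and the enzymes that act on them differed in their counts. Of 47 matrix proteins 5 rose and 21 fell. Thbs1, a matricellular protein that activates TGF-beta, went from 6.52, 6.33, 6.50 and 6.29 to 8.89, 8.77, 8.79 and 8.96 (2.45 ± 0.08). The proteoglycan gene Vcan, also 1 of the 3 monocyte markers measured, rose by 1.64 ± 0.13. Colec11, a lectin of stellate cells and 1 of the 9 stellate markers that fell, fell by 1.07 ± 0.09. Of 39 proteases, crosslinkers and inhibitors 16 rose and 10 fell. Beside Mmp13 and Timp1, the aggrecanase gene Adamts4 rose by 1.95 ± 0.12, and Timp2 fell by 1.11 ± 0.12. With arrays centred on the median of all probe sets 11 and 14 of these rose and fell, so the balance of that list turned with the scaling. Mmp8 and Mmp9 of this list are also among the 12 neutrophil markers, all of which rose, and the part of those cells was not tested.

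Cell junction genes fell in 19 of 38 cases, 8 of them at least 2-fold, and rose in 6. The tight junction gene Cldn3 went from 10.61, 10.37, 10.61 and 10.27 to 8.31, 8.53, 8.26 and 8.31 (−2.11 ± 0.10). Cldn1 had 12.11, 10.18, 12.19 and 10.94 and 9.46, 8.76, 9.65 and 8.82 (−2.18 ± 0.46), and its 2 lowest untreated values came from the arrays with a high clock score. Without the 3 arrays with a shifted clock the change of Cldn1 was −1.38 (limma adjusted p = 0.00644). Cldn14 rose by 1.72 ± 0.16 and F11r, a junctional adhesion molecule, by 0.88 ± 0.08. Glycosyltransferases of the Golgi had 18 of 51 higher and 13 lower, with B3galt1 at 2.90 ± 0.26, the branching enzyme Gcnt2 at 2.06 ± 0.16 and B4galt1 at 1.54 ± 0.15. That balance turned to 11 and 20 with arrays centred on the median of all probe sets.

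Genes for making ribosomes and proteins had medians of 0.14 for ribosome biogenesis, −0.09 for transfer RNA synthetases and −0.09 for translation factors. In the ribosome biogenesis list 15 of 57 rose and 12 fell, with the nucleolar protein gene Nop58 at 2.23 ± 0.24, the nucleolar GTPase Gnl2 at 1.12 ± 0.09 and Dkc1, the pseudouridine synthase, at −0.84 ± 0.12. Counts higher and lower were 12 and 16 with centring on all probe sets and 26 and 6 with centring on the tested genes. Of 33 transfer RNA synthetases 10 rose and 8 fell. Wars, the interferon-induced tryptophan enzyme, rose by 1.26 ± 0.12, and Kars and Rars by 0.75 ± 0.06 and 0.78 ± 0.09. With centring on all probe sets 7 rose and 13 fell. Of 51 translation factors 5 rose and 12 fell. The 3 that rose at least 2-fold included the kinase Eif2ak2, an antiviral sensor of double-stranded RNA (3.39 ± 0.09), and Eif1a (1.88 ± 0.10), while Eef2k, the kinase of the elongation factor, fell by 1.02 ± 0.12. With centring on the tested genes 10 rose and 6 fell.

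Lysosomal genes fell in 33 of 52 cases (63.5%) and rose in 4 (2 without either untreated array 2 or treated array 1 of WT). Npc1, the cholesterol exporter of the lysosome, fell by 1.22 ± 0.16, the glycosidases Manba and Neu1 by 1.14 ± 0.13 and 0.96 ± 0.10 and the calcium channel Mcoln1 by 0.63 ± 0.08. Tfeb, the transcription factor that controls lysosomal genes, fell by 0.71 ± 0.08, with 7.62, 7.66, 7.63 and 7.75 in untreated and 7.02, 7.01, 6.75 and 7.02 in treated arrays. More fell than rose with both centrings too, at 1 and 35 and 8 and 25 higher and lower. Kupffer cells are rich in lysosomes, and the mean of their 12 markers changed by −1.05 on the same arrays, a shift whose part was not tested.

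Of 49 autophagy genes 7 rose and 22 fell. Atg14, of the complex that starts the autophagosome, rose by 1.40 ± 0.16, and Atg101 of the initiating kinase complex fell by 1.27 ± 0.14. Of 41 heat shock genes 7 rose and 14 fell, with the cochaperone Bag3 at 1.43 ± 0.20 and the heat shock factor Hsf2 at −1.81 ± 0.19. Hsf2 went from 9.07, 9.26, 8.79 and 9.73 to 7.23, 7.99, 7.12 and 7.27, with separate groups. For heat shock genes the balance turned to 12 higher and 7 lower with centring on the tested genes. Of 14 genes of the reactive oxygen burst 4 rose, among them the phagocyte oxidase subunit Cybb (1.41 ± 0.12), Ncf4 (0.65 ± 0.11) and Rac2 (0.60 ± 0.11), and 3 fell (1 without untreated WT array 4). Neutrophil markers rose on the same arrays, and their part was not tested.

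ADP-ribosyltransferases and their partners had the largest share of risers of these 36 lists, 11 of 21 (52.4%), with 9 of them at least 2-fold and 5 lower. Parp14 went from 8.54, 8.67, 8.51 and 8.66 to 12.45, 12.24, 12.22 and 12.37 (3.72 ± 0.07). Parp9 rose by 2.32 ± 0.06, and Parp16, of the endoplasmic reticulum, fell by 0.64 ± 0.10. Several of these enzymes are interferon targets and belong to the usual families. Of 54 kinases of growth and stress signalling 20 rose and 15 fell, with Map2k1, the kinase above ERK, at 1.27 ± 0.08, Map3k8 at 1.85 ± 0.11, Jak2 at 1.89 ± 0.12 and Map2k6, above p38, at −1.42 ± 0.23.

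Transcription factors outside the NF-kB, STAT and IRF families moved in both directions. In the list of KLF and ETS factors 9 of 36 rose and 10 fell. Spic, a factor of iron-recycling macrophages, rose by 2.70 ± 0.16, the repressor Etv6 by 2.43 ± 0.11 and Elf1 by 1.82 ± 0.11. Elk3, an ETS factor of endothelium, went from 8.75, 8.41, 8.55 and 8.67 to 6.76, 6.74, 6.79 and 6.82 (−1.81 ± 0.08). Of 69 other inducible factors and cofactors 24 rose and 26 fell. The MYC antagonist Mxd1 rose by 2.74 ± 0.14, the zinc finger gene Zbtb16 by 2.54 ± 0.14 and Batf2 by 1.53 ± 0.10. Mxd1 stood at 7.71, 8.07, 7.88 and 8.46 without LPS and 10.97, 10.73, 10.54 and 10.83 with it. 

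Chromatin genes and noncoding RNAs completed the lists. Of 69 histone and DNA modifiers 22 rose and 30 fell. Setdb2, a histone methyltransferase, rose by 2.31 ± 0.14, its neighbour Phf11d by 3.54 ± 0.14, and the deacylase Sirt7 fell by 1.22 ± 0.08. Of 18 long noncoding and small RNA host genes 5 rose, with Lncpint at 1.32 ± 0.22, the nuclear RNA Malat1 at 1.04 ± 0.08 and Snhg5 at 0.90 ± 0.08. Airn, the antisense RNA of the imprinted Igf2r locus, was the only one called lower, at −0.66 ± 0.12. Without single WT arrays 2 or 3 of the list were lower, and 5 with arrays centred on the median of all probe sets.

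Gene families set by their symbols alone, 128 with at least 15 tested genes, showed where small changes ran in 1 direction. RNA-binding Rbm genes rose in 18 of 32 cases and fell in 1, with a median of 0.27. Rbm43 (2.25 ± 0.12) and Rbm26 (0.84 ± 0.15), chosen after their values were seen, were among the risers. DEAD-box Ddx helicases rose in 15 of 32 cases and fell in 5. With centring on all probe sets these counts were 12 and 4 for Rbm and 10 and 6 for Ddx. Mitochondrial ribosome genes fell, 19 of 29 Mrps genes with 0 higher and 27 of 48 Mrpl genes with 1 higher. Genes of the TRAPP vesicle tether fell in 10 of 15 cases, Abhd hydrolases in 13 of 20, tetraspanins (Tspan) in 11 of 17 and Nudt hydrolases in 12 of 19. With centring on the tested genes 12 Mrps and 18 Mrpl genes were still lower, and 0 and 5 higher. Of 317 solute carriers 49 rose and 102 fell, shares near those of all genes. The mitochondrial carriers Slc25 had 4 of 43 higher and 21 lower.

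**Figure D5:**
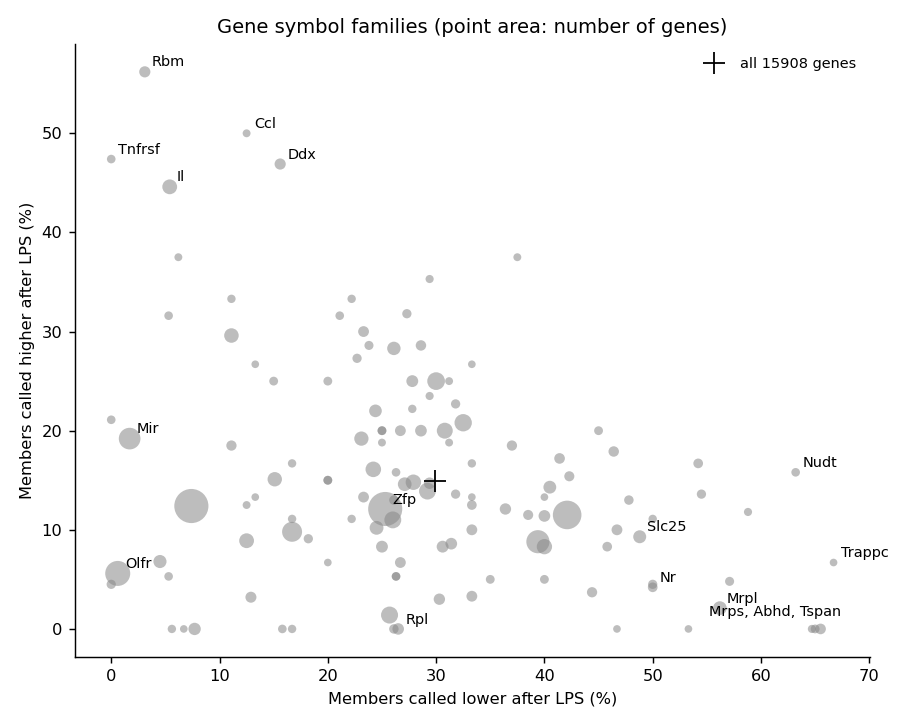
Share of members called higher (%, vertical axis) against the share called lower (%, horizontal axis) for 128 gene symbol families of at least 15 tested genes, with point area showing the number of genes. The cross marks all 15908 genes, and Rbm genes lie at 56.2% higher while Mrps, Abhd and Tspan genes lie at 0% higher.

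Probe sets annotated to microRNA genes rose in 23 of 120 cases and fell in 2, and olfactory receptor genes, which liver is not known to use, rose in 9 of 160 and fell in 1. These counts moved with the scaling, to 10 and 6 for microRNA genes and 3 and 7 for olfactory receptors with centring on all probe sets, and to 37 and 0 and 39 and 0 with centring on the tested genes. Mir155, processed from a transcript induced by TLR signals, stood at 5.15, 5.16, 5.40 and 5.02 in untreated arrays and 5.77, 5.67, 5.86 and 5.73 after LPS (0.58 ± 0.09, limma adjusted p = 4.32e-05). Mir101b stood at 5.54, 6.12, 5.40 and 5.84 and 6.80, 7.35, 6.69 and 6.22 (1.04 ± 0.23). Both genes were chosen after their values were seen. Their mature products, from RefSeq with GRCm38.p6 coordinates and the seed (bases 2 to 8) in capitals, are shown because their seeds differ.
miR-155-5p, chr16:84714143-84714165, plus strand: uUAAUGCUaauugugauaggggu
miR-155-3p, chr16:84714182-84714202, plus strand: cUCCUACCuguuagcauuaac
miR-101b-5p, chr19:29135302-29135324, plus strand: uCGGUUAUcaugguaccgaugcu
miR-101b-3p, chr19:29135338-29135356, plus strand: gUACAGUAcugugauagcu
The arrays label whole transcripts, so these values may come from the precursor or a host transcript, and the mature RNAs were not measured.

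Genes that changed lay next to each other in places. Along the chromosomes of GRCm38.p6, 14 runs of at least 4 consecutive tested genes rose by at least 1.5-fold each and 13 runs fell. The longest 2 runs of risers held 8 genes each, the Ifi200-type cluster from Ifi206 (2.79 ± 0.13) to Ifi205 (4.38 ± 0.18) and the schlafen cluster from Slfn5 (2.96 ± 0.10) to Slfn3 (1.06 ± 0.11). Members of such clusters are related genes, and probes may be shared between the closest of them. One run outside the usual families held B3galt1, Stk39, Cers6 and Nostrin, which rose by 0.65 to 2.90. A run with Steap genes held Cfap69, Steap2, Steap1 and Steap4 (0.84 to 3.16). Of these, Steap4, a metalloreductase, went from 10.15, 11.25, 10.09 and 10.83 to 13.77, 13.67, 13.74 and 13.78. Runs of genes that fell held genes of mixed families, such as Srebf1, Tom1l2, Atpaf2 and Gid4 (−1.68 to −0.63) and Klhl5, Wdr19, Rfc1 and Klb (−1.53 to −0.64). With no minimum of size 38 runs rose and 152 fell.

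Some genes varied more among untreated samples than LPS changed them. Usp2, a clock-driven deubiquitinase, stood at 7.25, 11.10, 7.24 and 10.75 in untreated arrays and 7.14, 7.47, 6.98 and 7.17 after LPS, and Dbp, a clock output factor, at 8.45, 11.45, 7.85 and 11.80 and 7.87, 9.09, 7.55 and 8.71. The untreated values of both were high in arrays 2 and 4 and low in arrays 1 and 3, like the clock score. Their changes of −1.90 ± 0.83 and −1.58 ± 0.92 did not pass (limma adjusted p = 0.0758 and 0.186), and were −3.73 and −3.32 without the 3 arrays with a shifted clock. Dbp is itself part of the clock score that picked those arrays. Its match to the score and its larger fall without them were therefore built in. Usp2 is not part of the score, but it was low in untreated WT arrays 1 and 3. Its larger fall without those arrays, together or singly, follows from these values and is no separate support. Usp2 also passed without untreated WT array 1 (−2.51, adjusted p = 0.0219), array 3 (−2.51, adjusted p = 0.0216) or untreated S534A array 3 (−1.90, adjusted p = 0.0297). Pfkfb3, which makes the activator of glycolytic phosphofructokinase, had 6.86, 9.02, 6.60 and 9.20 and 11.81, 11.42, 11.75 and 11.68 (3.74 ± 0.60), and Gdap10 5.95, 7.86, 5.72 and 8.13 and 10.58, 10.30, 10.51 and 10.35 (3.52 ± 0.48). In these 2 genes the same untreated arrays were high, yet every treated array was higher still, and without the 3 arrays the changes were 2.55 and 2.44.

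Ctse, an intracellular aspartic protease, followed neither the treatment nor the clock. It stood at 6.11, 5.94, 6.06 and 10.37 in untreated arrays and 9.56, 9.98, 9.39 and 6.37 after LPS, so that array 4 was the only high untreated value and the only low treated value. The change of 1.70 ± 1.11 did not pass (limma adjusted p = 0.246), and was 2.79, adjusted p = 0.0338 without untreated WT array 4. Over all genes the median SD within a group was 0.149 in untreated and 0.145 in LPS-treated WT arrays, and 51.7% of genes had the larger SD without LPS.

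Whether the response of WT liver differed from that of S534A liver was tested gene by gene with the interaction term of the same limma fit. The number of genes that passed an adjusted p under 0.05 was 0, and 766 had an unadjusted p under 0.05. The count was 3 with array quality weights, 1 without untreated WT array 2, 2 without untreated WT array 4 and 1 without LPS-treated WT array 2. None of the changes above is therefore shown to be particular to WT. For Ddx60 the response in S534A liver minus that in WT was −0.14 ± 0.17, for Tead1 −0.14 ± 0.14, for Sucnr1 −0.09 ± 0.21 and for Kcnk5 −0.44 ± 0.48 (limma, adjusted p from 0.958 to 0.982). Departures larger against their error were those of Igfbp1 (−1.63 ± 0.37) and Malat1 (−0.41 ± 0.11), which did not pass either (limma, adjusted p from 0.875 to 0.925).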

How the data were processed

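RNA of 16 mouse liver samples was measured on Affymetrix whole-transcript arrays. The deposited values are log2 signals, made by RMA per the submitters' processing notes, with software, version and detection calls not given in the sources used here. Array medians lay between 6.25 and 6.42. Of 35556 probe sets 21789 named 1 gene, 1621 several and 12146 none, and those naming 1 gene were used. A probe set was kept when it lay above the 30th percentile of its own array in at least 4 of 16 arrays, and 807 genes were represented by the brightest of several. The fit (limma 3.58.1 in R 4.3.3) had 4 group means over 16 arrays, 12 residual degrees of freedom, Benjamini-Hochberg adjustment over 15908 genes and a threshold of 0.05. The test was checked on simulated data. Summaries used Python 3.11.15. Promoters and microRNAs came from RefSeq tables, in which 3384 tested genes had no promoter.

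The genes, lists and symbol patterns were chosen with earlier results of these data known. Genes were named by rule: the largest non-overlapping rises and falls, the largest outside the usual families, the called members of each list with the lowest p and the largest changes, the genes with the largest spread and the members of neighbouring runs. Genes named outside this rule are stated as such. Alternatives covered filters, scaling, array weights, probe set summary, thresholds, a replicate block, the WT arrays alone and leaving out arrays. Centring on the tested genes and leaving out both arrays at the edge of the second component were added after seeing the data. One gene list and its members are not reported here.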

Additional observations from a re-analysis of the deposited data

Results flagged for a closer look

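Of 378 groups of 4 arrays examined for the named genes, 21 had 1 array far from the other 3. Chance gives about 1 in 20, so this count is close to that of chance. LPS-treated WT array 2 stood apart for 8 genes. It was above the other treated arrays for Acot4 (8.16 against 7.27 to 7.29), Arrdc3 (8.48 against 7.16 to 7.38), Hgf (7.39 against 6.81 to 6.89), Inhbe (9.26 against 7.34 to 7.57), Mthfd2 (8.57 against 7.93 to 8.02) and Srm (10.88 against 9.94 to 10.0). It was below them for Sgms1 (9.70 against 9.92 to 9.96) and Tacc2 (10.80 against 10.87 to 10.88). LPS-treated array 1 was highest for Crybg1 (11.26 against 10.90 to 10.96), Eif1a (10.33 against 10.08 to 10.12) and Etv6 (11.16 against 11.06 to 11.07). LPS-treated array 3 was lowest for Rxrg (9.21 against 9.73 to 9.80) and Tfeb (6.75 against 7.01 to 7.02).

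Among untreated arrays, array 4 was highest for Ctse (10.37 against 5.94 to 6.11), Cybb (9.85 against 9.33 to 9.36) and Timp2 (8.61 against 8.32 to 8.36). LPS-treated array 4 was lowest for Ctse (6.37 against 9.39 to 9.98). Untreated array 2 was lowest for Adgrl4 (9.30 against 9.49 to 9.51) and Eng (10.60 against 10.72 to 10.74). Untreated array 1 was lowest for Crybg1 (7.81 against 8.0 to 8.03), and untreated array 3 highest for Pex16 (11.51 against 11.31 to 11.34).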

How the results depend on the processing

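With a minimum change of 1.5-fold 1269 genes were higher and 1889 lower in WT. The other alternatives tried left the counts of higher and lower genes within 1.5 times those reported, and no named gene changed sign under any of them. The balance between higher and lower genes moved with the scaling: 1838 and 6493 with arrays centred on all probe sets, 3510 and 3254 on the tested genes (an alternative chosen after seeing the data), and 2949 and 4393 after a second quantile normalization. Genes with a different response in WT and S534A numbered 3 with array quality weights, 3 without both arrays at the edge of the second component, and 0 to 2 when single arrays were left out. Replicate numbers did not pair the arrays: deviations of same-numbered untreated and LPS-treated WT arrays correlated at 0.06, 0.01, 0.27 and −0.35. With a replicate block 2333 genes were higher and 4655 lower, and 96.6% of called genes kept their call. Of the named genes only Usp2 changed its call under that block, at −1.90 (limma adjusted p = 0.0439). Without the 3 arrays with a shifted clock 83.8% of called genes kept their call. Mir155 (0.58) and Ptgs2 (0.56) fell below the 1.5-fold minimum. The number of arrays, 4 a group, limits the precision, and the arrays give no detection call, so dim genes have no stated floor.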
